A study of Mus musculus with 20 samples.

Results

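Single-cell libraries of the basolateral amygdala (BLA) from mice that had all received ketamine were compared between mice given corticosterone and mice given its vehicle. The comparison uses 6 of the 20 samples of the series, 3 per group, with 1 library per mouse: CORT/Ket mice 9967, 9968 and 9971, and BCD/Ket mice 9946, 9949 and 9986. The groups were defined by the sample labels, and the comparison was chosen with earlier results of these data known. Of the 18051 barcodes deposited for these mice, 3694 were kept (1758 in CORT/Ket and 1936 in BCD/Ket), those with at least 200 detected genes and with mitochondrial genes at no more than 12.5% of their UMIs (unique molecular identifiers, which count captured RNA molecules).

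All mice were wild-type C57BL/6 males, 13 weeks old by the labels. CORT/Ket mice drank corticosterone at 35 µg/ml for 6 weeks in the cyclodextrin vehicle 2-hydroxypropyl cyclodextrin (BCD), and BCD/Ket mice are the vehicle group. Both groups then received 1 intraperitoneal dose of ketamine (Ket, 10 mg/kg), and tissue was taken 24 h later, so the groups compared differ by corticosterone. The methods text speaks of regular drinking water for controls and of dissected prefrontal cortex, while the labels of these samples name BCD and the BLA; the labels were followed. The clock hour of harvest is not given in the sources used here. Saline-injected mice (BCD/Sal, mice 9901 and 9947; CORT/Sal, mice 9969 and 9970) were used only to set the same corticosterone contrast beside this one.

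Corticosterone, the main glucocorticoid of rodents, enters cells and binds the glucocorticoid and mineralocorticoid receptors, which act on gene promoters and enhancers; Tsc22d3, Fkbp5, Sgk1 and Per1 are classical targets. Its daily rhythm is also a timing signal for the clocks of peripheral and brain cells. In those clocks CLOCK and ARNTL (BMAL1) drive the Period, Cryptochrome, Dbp and Nr1d1 genes through E-boxes, the REV-ERB repressors encoded by Nr1d1 and Nr1d2 hold Arntl down, and the transcription factors DBP, HLF and TEF act on D-boxes.

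Among 6 cell classes, the calls were in endothelial cells and oligodendrocytes. In endothelial cells the clock output gene Dbp and the clock repressor Nr1d1 were lower in CORT/Ket, and in oligodendrocytes S100b was. No gene passed the threshold in astrocytes, microglia or neurons. Under other settings some did, among them Apod and Dbp in astrocytes and the MHC class II gene H2-Eb1 in microglia. Promoters of 3 clock genes are shown here because the 2 called endothelial genes and Per1, a target of both the clock and the glucocorticoid receptor, lie at the centre of the comparison. They are the RefSeq sequences of GRCm38.p6, from 250 bases before to 50 bases after the transcription start, in the direction of the gene, for Dbp at chr7:45704997-45705296 (+ strand), Nr1d1 at chr11:98775328-98775627 (− strand) and the first of the Per1 promoters at chr11:69098699-69098998 (+ strand). Capitals mark an E-box, CACGTG, which starts 166 bases before the Per1 start.
Dbp: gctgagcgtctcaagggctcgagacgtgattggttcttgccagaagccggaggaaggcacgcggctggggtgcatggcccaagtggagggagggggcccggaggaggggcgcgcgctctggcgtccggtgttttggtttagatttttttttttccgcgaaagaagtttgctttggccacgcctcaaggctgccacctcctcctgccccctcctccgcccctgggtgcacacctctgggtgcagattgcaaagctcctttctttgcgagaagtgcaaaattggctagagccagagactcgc
Nr1d1: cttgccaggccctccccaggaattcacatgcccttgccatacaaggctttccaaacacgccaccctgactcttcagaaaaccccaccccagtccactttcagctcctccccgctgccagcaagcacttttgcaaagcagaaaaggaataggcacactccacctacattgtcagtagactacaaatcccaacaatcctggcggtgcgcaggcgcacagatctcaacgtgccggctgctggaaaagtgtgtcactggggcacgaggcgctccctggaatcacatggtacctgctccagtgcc
Per1: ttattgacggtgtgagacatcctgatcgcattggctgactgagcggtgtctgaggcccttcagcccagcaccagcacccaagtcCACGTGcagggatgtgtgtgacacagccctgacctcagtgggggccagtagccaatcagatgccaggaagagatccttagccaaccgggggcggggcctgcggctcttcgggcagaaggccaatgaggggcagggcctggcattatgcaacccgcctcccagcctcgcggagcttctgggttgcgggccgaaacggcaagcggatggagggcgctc
The E-box CACGTG reads the same on both strands and is present in 7.15% of the 32851 promoter windows of that table (2349 windows). The windows of Dbp and Nr1d1 held no CACGTG, no D-box (TTATGTAA or its reverse complement TTACATAA, in 0.938% of windows) and no RORE core (TAGGTCA or TGACCTA, in 2.61%). A second Per1 window in the table, at chr11:69099902-69100201 (+ strand), held none of the 3 motifs either. Such a match or its lack describes these letters in this window only.

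Cells were assigned to a class by a pair of gate genes: Cldn5 and Flt1 for endothelial cells, Gja1 and Aqp4 for astrocytes, Cx3cr1 and P2ry12 for microglia, Mog and Mag for oligodendrocytes, Slc17a7 and Slc17a6 for excitatory neurons, and Gad1 and Gad2 for inhibitory neurons. A barcode needed at least 2 UMIs of its pair and at least 2 times as many as of any other pair. Of the kept barcodes, 2688 fell in a class: 796 endothelial cells, 750 astrocytes, 578 microglia, 245 oligodendrocytes, 243 excitatory neurons and 76 inhibitory neurons. Among the cell type marker lists, the other markers of a class, which the gate did not use, summed highest in every entering library. The 6 other endothelial markers summed to 12521 to 16550 CPM (counts per 1000000 non-mitochondrial UMIs of the class in a library), beside at most 3919 CPM of pericyte and smooth muscle markers, and the margin was narrowest in excitatory neurons, with 1562 to 2437 CPM beside at most 1057 CPM of astrocyte markers.

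Library depth ran from 811628 to 6778708 UMIs, and the median mitochondrial share of all deposited barcodes from 44.5% to 57.9%, so only 16.8% to 23.7% of barcodes were kept. The groups overlapped in median UMIs, median genes, mitochondrial share and percent kept, with exact two-sided permutation p between 0.4 and 1, where 3 against 3 cannot go below 0.1. Libraries 9946 and 9967 stood apart, with 0 and 3 microglia, 5 and 4 astrocytes, and the lowest median UMIs of kept barcodes (883 and 826, against 1346.5 to 2845 in the other 4). They sit in different groups, and a library entered the test of a class only with at least 10 barcodes of it, so they were absent from the astrocyte and microglia tests. Over the 15 pairs of libraries at most 9 barcode sequences were shared, and at most 1 among kept barcodes.

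The share of oligodendrocytes among kept barcodes was lower in every CORT/Ket mouse than in every BCD/Ket mouse. In BCD/Ket mouse 9946 it was 19.1% (69 of 361 barcodes, exact binomial 95% confidence interval 15.2 to 23.6%), in 9949 it was 6.81% (45 of 661, 5.01 to 9.004%) and in 9986 it was 7.002% (64 of 914, 5.43 to 8.85%). In CORT/Ket mouse 9967 it was 2.22% (3 of 135, 0.461 to 6.36%), in 9968 it was 3.70% (23 of 621, 2.36 to 5.51%) and in 9971 it was 4.09% (41 of 1002, 2.95 to 5.51%). The intervals cover counting error only, and the group means were 10.97% ± 7.05 in BCD/Ket and 3.34% ± 0.987 in CORT/Ket (SD, n = 3 each). The difference of −7.64 percentage points had an exact two-sided permutation p of 0.1, the smallest that 3 against 3 allows, and an adjusted p of 0.6 over the 6 classes. Without mouse 9946 the difference was −3.57 points.

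**Figure D1:**
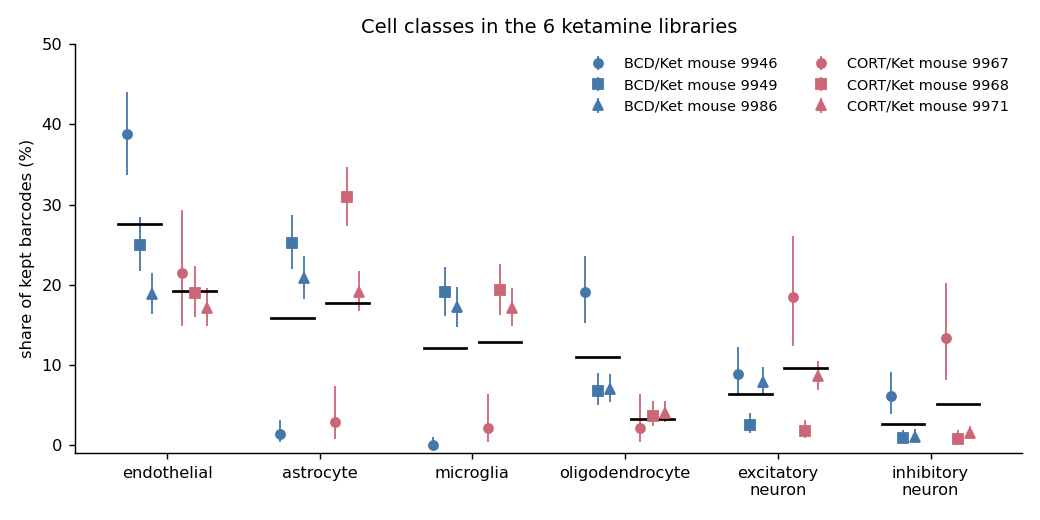
Share of each cell class among kept barcodes (percent, y axis) in each of the 6 ketamine libraries, with 1 point per mouse, its exact binomial 95% confidence interval as a bar and a black line at the group mean. The oligodendrocyte points of BCD/Ket (6.81 to 19.1%) lie above those of CORT/Ket (2.22 to 4.09%), and the groups overlap in the other 5 classes.

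In the other classes the shares overlapped between the groups. Endothelial cells made up 38.8, 24.96 and 18.8% of kept barcodes in BCD/Ket mice 9946, 9949 and 9986 and 21.5, 19.0 and 17.2% in CORT/Ket mice 9967, 9968 and 9971, a difference of −8.30 points (exact permutation p = 0.3, adjusted p = 0.9), which was −2.67 without mouse 9946 and −12.7 without mouse 9986. Differences were 1.87 points for astrocytes, 0.824 for microglia, 3.19 for excitatory neurons and 2.51 for inhibitory neurons, with exact permutation p from 0.7 to 0.9 and an adjusted p of 0.9 for each.

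Endothelial cells entered the test from all 6 libraries, with 140, 165 and 172 barcodes in BCD/Ket and 29, 118 and 172 in CORT/Ket. Of 5872 genes tested, 2 passed (0.0341%), Dbp and Nr1d1, both lower in CORT/Ket, by the quasi-likelihood test of edgeR (adjusted p under 0.05, Benjamini-Hochberg). At an unadjusted p under 0.05 there were 118 genes (2.01%), 40 higher (0.681%) and 78 lower (1.33%), and the groups did not overlap for 3.08% of genes on the lower side and 4.05% on the higher side.

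Dbp, which encodes a D-box activator that is a direct output of the clock, measured 127, 140 and 135 CPM in BCD/Ket mice 9946, 9949 and 9986 (13, 96 and 48 UMIs). In CORT/Ket mice 9967, 9968 and 9971 it measured 53.1, 13.4 and 19.3 CPM (1, 5 and 6 UMIs). The BCD/Ket values lay close together and every CORT/Ket value lay below them. That of mouse 9967 rests on 1 UMI, where 3 counts make 159 CPM, so it cannot be placed below the BCD/Ket mice. The means were 134 ± 6.58 and 28.6 ± 21.4 CPM (SD, n = 3 each), and Dbp fell by 2.97 on the log2 scale (SE 0.42, edgeR adjusted p = 0.0013).

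Nr1d1, which encodes the repressor REV-ERBα, measured 107, 150 and 144 CPM in the BCD/Ket mice (11, 103 and 51 UMIs) and 0, 32.3 and 19.3 CPM in the CORT/Ket mice (0, 12 and 6 UMIs). Again the groups did not overlap, and Nr1d1 fell by 2.48 on the log2 scale (SE 0.40, edgeR adjusted p = 0.00685). The 0 of mouse 9967 carries little weight, since 29 barcodes and 18848 UMIs allow a level of up to 159 CPM (3 counts). Without that mouse both genes still passed, at −3.07 for Dbp and −2.43 for Nr1d1 on the log2 scale (edgeR adjusted p = 0.00277 and 0.0182). Levels of such genes follow the time of day, and since the harvest hour of the groups is not given, it and corticosterone cannot be told apart here.

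**Figure D2:**
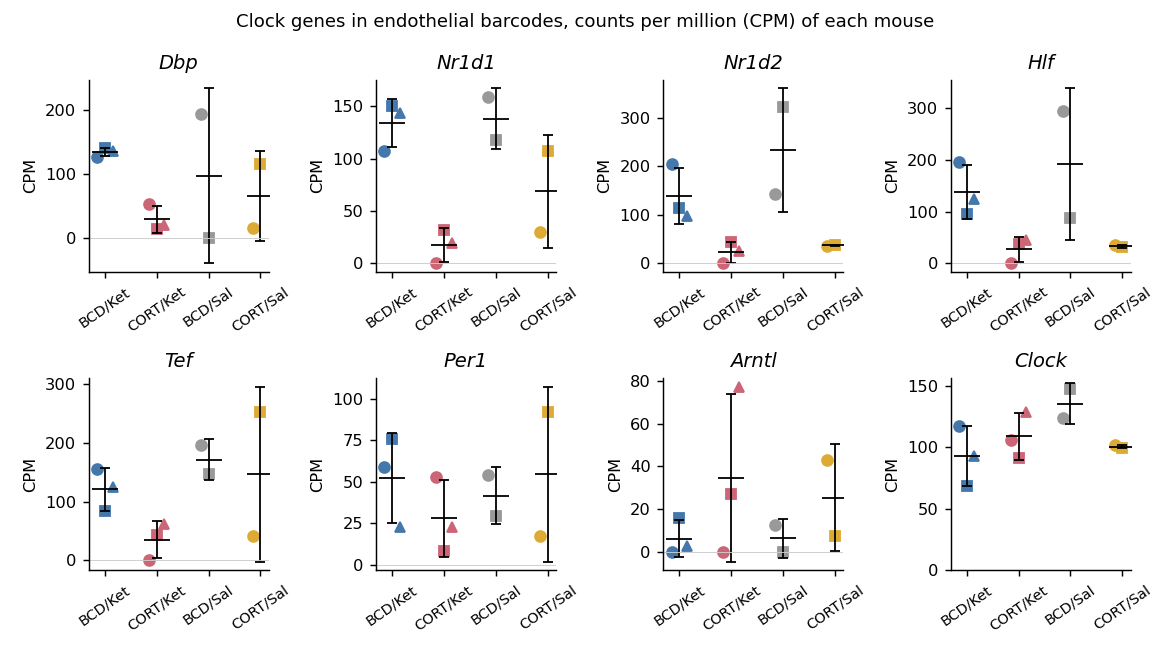
Endothelial level (CPM, y axis) of 8 clock genes in the ketamine and saline libraries, with 1 point per mouse and the mean ± SD of each group, where a wide SD can reach below 0. Dbp and Nr1d1 lie at 107 to 150 CPM in the 3 BCD/Ket mice and at 0 to 53.1 CPM in the 3 CORT/Ket mice.

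The closest relatives of these genes had values on the same side without passing. Nr1d2, the second REV-ERB gene, measured 205, 114 and 98.6 CPM in BCD/Ket and 0, 43.0 and 25.7 CPM in CORT/Ket (−1.92 on the log2 scale, SE 0.41, edgeR adjusted p = 0.138), and it passed with no filter on low counts (0.00964) and with a term for the microglia-poor libraries (0.0276). Hlf, a D-box factor like Dbp, measured 195, 94.7 and 124 CPM against 0, 37.6 and 45.0 CPM (−1.68, SE 0.39, edgeR adjusted p = 0.311). The D-box factor gene Tef measured 156, 83.1 and 124 against 0, 43.0 and 61.1 CPM. In Nr1d2, Hlf and Tef the CORT/Ket values above 0 lay below the lowest BCD/Ket value. Mouse 9967 was at 0 in each, which allows up to 159 CPM, so it cannot be placed below the BCD/Ket mice.

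Among the other clock genes, Per1 measured 58.6, 75.8 and 22.5 CPM in BCD/Ket and 53.1, 8.06 and 22.5 CPM in CORT/Ket, and the groups overlapped (−1.79 on the log2 scale, SE 0.56). Clock, whose product drives the E-box genes, was level at 117, 68.5 and 93.0 against 106, 91.4 and 129 CPM (0.30). Its partner Arntl was too low to be tested and had 0, 11 and 1 UMIs in BCD/Ket (0, 16.0 and 2.82 CPM) and 0, 10 and 24 UMIs in CORT/Ket (0, 26.9 and 77.2 CPM), so its highest value was in a CORT/Ket mouse, and the groups overlapped.

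Of the 19 genes in the clock list, 10 passed the filter on low counts in endothelial cells, and 2 of these were called, both lower. At an unadjusted p under 0.05, 6 of the 10 were lower and 0 higher, where 1.33% of all genes tested were lower. The groups did not overlap, with CORT/Ket lower, for 5 of the 10, against 3.08% of all genes tested, and the median log2 fold change of the 10 was −1.44 beside −0.02 over all 5872. Nr1d1, Nr1d2, Hlf and Tef, among those without overlap, were at 0 in mouse 9967, where a 0 allows up to 159 CPM. Dbp rested on 1 UMI in that mouse. The 9 genes that did not pass the filter include Per2, Cry2 and Ciart, with at most 30.6 CPM in any ketamine library. A gene high in 1 group alone can pass this filter, and Arntl, highest in a CORT/Ket mouse, did not. The counts include the 2 called genes and describe the list without testing it.

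No glucocorticoid target passed the threshold in endothelial cells in the main test. Tsc22d3, which encodes the anti-inflammatory protein GILZ, came nearest, at 391, 405 and 206 CPM in BCD/Ket and 0, 91.4 and 106 CPM in CORT/Ket, with no overlap (−1.88 on the log2 scale, SE 0.38, edgeR adjusted p = 0.0844). It did pass, also lower, with no filter on low counts (edgeR adjusted p = 0.00168), without mouse 9946 (0.0286), without mouse 9986 (0.0266) and with a term for the microglia-poor libraries (0.00573). Klf9, a transcription factor gene under glucocorticoid control, measured 352, 405 and 361 against 106, 156 and 286 CPM (−0.91, SE 0.34, edgeR adjusted p = 1), and Nfkbia, the NF-kB inhibitor gene, 908, 853 and 581 against 318, 521 and 386 CPM (−0.93, SE 0.34, edgeR adjusted p = 1). In all 3 genes the mice given the hormone had the lower values.

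Among the other targets with an unadjusted edgeR p under 0.05, Map3k6 (−2.30), Per1 (−1.79) and Ddit4 (−1.18) had larger fold changes than Klf9 and Nfkbia. Mt2 (−0.94) and Mt1 (−0.83) lay near those genes, and none of them passed. Per1 is counted in both the clock list and the target list. Sgk1 and Nr3c1 were closer together. Sgk1, a kinase gene induced through both corticosteroid receptors, measured 156, 439 and 175 CPM in BCD/Ket and 212, 199 and 219 CPM in CORT/Ket, with overlapping groups (−0.44), and the glucocorticoid receptor gene Nr3c1 measured 352, 242 and 375 against 159, 317 and 331 CPM (−0.14). Of the 30 listed targets 20 were tested and 0 called. By edgeR, 8 had an unadjusted p under 0.05 and lower values, where 1.33% of all genes tested did, and 0 had higher values. DESeq2 called 0, and the median was −0.49 beside −0.02 over all genes tested. As for the clock list, these counts describe the tested members only, and genes high in 1 group alone could pass the filter. In the list of corticosteroid receptors and chaperones 12 of 14 were tested, 0 had an unadjusted p under 0.05, and the median was −0.22.

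**Figure D3:**
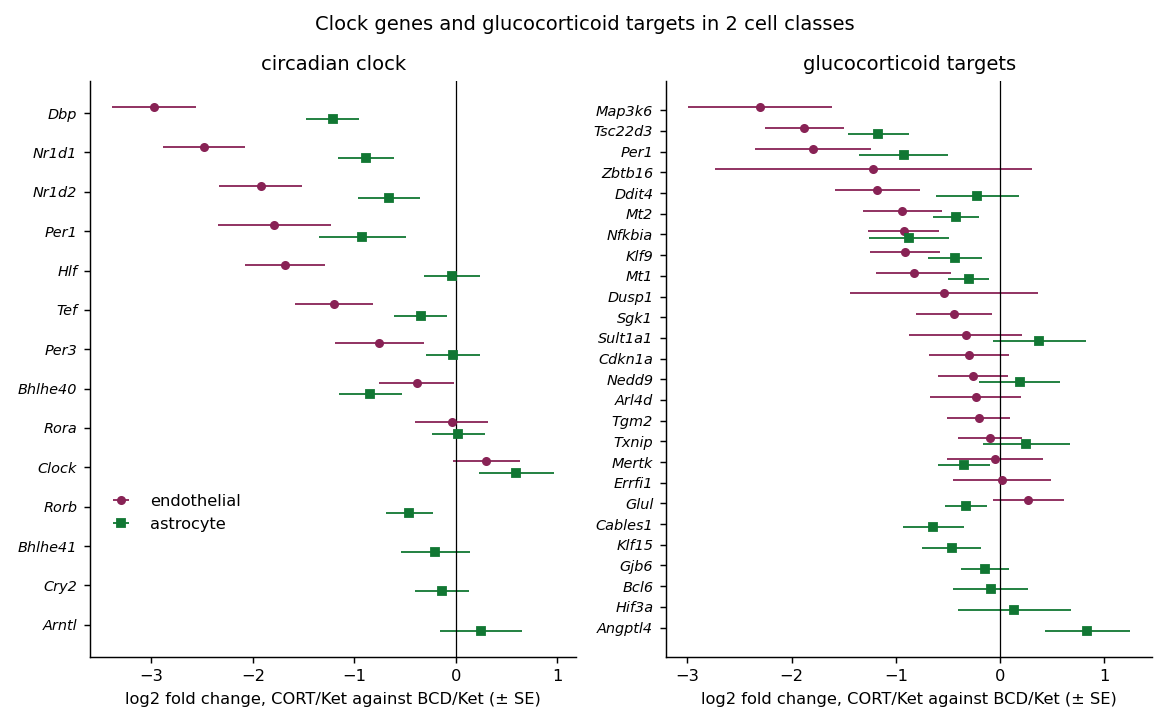
Log2 fold change ± SE (x axis, CORT/Ket against BCD/Ket) of every tested clock gene (left) and glucocorticoid target (right) in endothelial cells (circles) and astrocytes (squares). Dbp and Nr1d1 in endothelial cells, at −2.97 and −2.48, are the genes past the threshold.

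Genes of the blood-brain barrier spread on both sides. The glucose transporter gene Slc2a1 measured 2685, 2315 and 1950 CPM in BCD/Ket and 1061, 1610 and 1669 CPM in CORT/Ket (−0.73, SE 0.35), and the lactate transporter gene Slc16a1 measured 371, 404 and 722 against 849, 1016 and 833 CPM (0.76, SE 0.34). The groups did not overlap in either gene, yet neither passed (edgeR adjusted p = 1). Of 21 such genes tested these 2 had an unadjusted p under 0.05, beside 2.01% of all genes tested, and the median was −0.10.

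No endothelial gene was called higher in CORT/Ket in the main test, while with no filter on low counts 4 of 15159 were. The smallest p values in that direction belonged to Lgmn, which encodes the lysosomal protease legumain (9.77, 21.9 and 22.5 against 53.1, 72.6 and 41.8 CPM, 1.42 on the log2 scale), to Gulp1, an engulfment adaptor gene (39.1, 36.4 and 47.9 against 159, 72.6 and 103 CPM, 1.10), and to Gm13889 (1.42). The edgeR adjusted p was 1 for each. Immediate early genes, which respond to tissue dissociation, had 20 tested members, of which 0 had an unadjusted p under 0.05, with a median of −0.28.

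Beside these endothelial values, the 8 oligodendrocyte markers summed to 27.7 to 146 CPM in BCD/Ket and 0 to 25.7 CPM in CORT/Ket, the astrocyte markers to 166 to 383 and 250 to 849 CPM, and the pericyte markers to 957 to 3715 and 2122 to 3919 CPM. The 8 microglia markers summed to 0 to 282 and 0 to 645 CPM, with 3 tested, all above 0 (median 1.49). One of them, the complement gene C1qb, had the highest fold change of all 5872 endothelial genes (1.77 on the log2 scale), and without mouse 9986 the microglial genes C1qa and Csf1r were called higher (edgeR adjusted p = 0.0212 and 0.0474). Transcripts of blood cells, which the gate did not exclude, summed to 78.1 to 35024 and 53.1 to 12005 CPM. Their part in the result was not tested. The 2 calls depended on the fit. DESeq2 called Dbp alone (adjusted p = 0.0277), a fit that also held the 4 saline libraries called 0 genes, Dbp was lost without mouse 9968 (−2.70, edgeR adjusted p = 0.0825) and Nr1d1 without mouse 9971 (−2.24, edgeR adjusted p = 0.301). Over the alternatives in which they could be tested, Dbp stayed between −3.15 and −2.70 and Nr1d1 between −3.01 and −2.24 on the log2 scale.

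The same corticosterone contrast in saline mice was set beside this one. Endothelial Dbp measured 193 and 0 CPM in BCD/Sal mice 9901 and 9947 and 15.1 and 115 CPM in CORT/Sal mice 9969 and 9970, and Nr1d1 measured 158 and 118 against 30.2 and 107 CPM. Mouse 9947 gave 34005 endothelial UMIs, so its 0 allows up to 88.2 CPM. The barcodes gated as endothelial in mouse 9970 lacked much of the endothelial profile, with the transporter gene Abcb1a at 30.6 CPM, beside 1285 to 1698 CPM in the 6 ketamine libraries.

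In 1 fit of 10 libraries, 0 of 7412 endothelial genes differed in their corticosterone effect between ketamine and saline mice by edgeR (ketamine minus saline −1.75, SE 1.24, for Dbp and −1.38, SE 0.87, for Nr1d1, adjusted p = 1 for both), and DESeq2 also found 0. At an unadjusted p under 0.05, 132 genes had a lower effect in ketamine mice. In saline mice this fit gave −1.18 on the log2 scale for Dbp (SE 0.89, edgeR adjusted p = 0.797) and −1.11 for Nr1d1 (SE 0.65, edgeR adjusted p = 0.791). DESeq2 gave −0.47 for Dbp (adjusted p = 0.979). Without mouse 9970, 1 CORT/Sal library is left, whose spread is taken from the other groups. In saline mice Dbp was then at −3.22 (SE 0.67) and Nr1d1 at −2.21 (SE 0.60), both lower with corticosterone, as in ketamine mice. For Dbp, BCD/Sal mouse 9947 measured 0 CPM, which allows up to 88.2 CPM. Without that CORT/Sal mouse the difference between the effects was 0.24 for Dbp (SE 0.90) and −0.29 for Nr1d1 (SE 0.76). The widths of these errors leave differences of more than 1 log2 unit in either direction undetectable.

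Astrocytes were tested with 2 libraries per group, BCD/Ket mice 9949 and 9986 (167 and 190 barcodes) and CORT/Ket mice 9968 and 9971 (192 and 192 barcodes). Of 6921 genes 0 were called (0%) by edgeR and 0 by DESeq2, and 221 had an unadjusted p under 0.05 (3.19%), 82 higher (1.18%) and 139 lower (2.01%). With 2 against 2, no overlap was common, on the lower side in 12.7% and on the higher side in 16.4% of genes. Dbp had the smallest p, at 332 and 328 CPM in BCD/Ket and 162 and 128 CPM in CORT/Ket (−1.22 on the log2 scale, SE 0.26, edgeR adjusted p = 0.158). It was called lower at a mitochondrial limit of 25% (−1.21, edgeR adjusted p = 0.0352), and not with RLE factors or DESeq2. Nr1d1 measured 263 and 197 against 124 and 139 CPM (−0.88, SE 0.27), and Bhlhe40, a clock-linked repressor gene, 167 and 116 against 93.8 and 69.4 CPM (−0.84, SE 0.31). Each CORT/Ket astrocyte value of these 3 genes lay below both BCD/Ket values.

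Over the clock list in astrocytes, 14 of 19 genes were tested. At an unadjusted p under 0.05, 5 were lower and 0 higher, against 2.01% lower over all genes tested, and the median was −0.27 beside −0.01. Clock itself measured 30.7 and 78.2 CPM in BCD/Ket and 78.9 and 79.8 CPM in CORT/Ket (0.60, SE 0.37). Of 18 glucocorticoid targets tested, 4 were lower (Tsc22d3, Nfkbia, Cables1 and Per1) and 1 higher (Angptl4) at that unadjusted threshold, with a median of −0.31. Tsc22d3 measured 259 and 160 CPM in BCD/Ket and 113 and 79.8 CPM in CORT/Ket, again without overlap (−1.17, SE 0.29, edgeR adjusted p = 0.403). With a library left out, which left 1 in a group, its log2 fold change ran from −1.47 (without mouse 9986) to −0.68.

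On the higher side in astrocytes the smallest p values were those of Apod, Nupr1 and Rarres2. Apod, which encodes the lipid carrier apolipoprotein D and is rich in oligodendrocytes, had 1 UMI in each BCD/Ket library (1.92 and 3.13 CPM) and 15 and 41 UMIs in CORT/Ket (32.0 and 142 CPM), with an edgeR adjusted p of 0.355. It was called higher with no filter on low counts (edgeR adjusted p = 6.29e-09), at a minimum of 5 barcodes (2.21e-09) and at a gate of 1 UMI (3.51e-15). With RLE factors, DESeq2, all 10 libraries in the fit, a minimum of 30 barcodes or at least 500 genes it was not called. Nor was it called at gates of 3 UMIs or 8 markers, at a mitochondrial limit of 5% or 25%, or with mitochondrial genes kept. The stress-response gene Nupr1 measured 19.2 and 9.38 against 74.6 and 45.1 CPM (1.94), and Rarres2, which encodes chemerin, 104 and 185 against 318 and 239 CPM (0.96). In all 3 genes both CORT/Ket mice lay above both BCD/Ket mice. Nupr1 was also called higher at a gate of 1 UMI (edgeR adjusted p = 0.0105).

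Cholesterol synthesis genes, an astrocyte supply line for neurons, had 20 tested members in astrocytes. At an unadjusted p under 0.05, 2 were higher and 0 lower: Cyp51 (109 and 113 against 198 and 149 CPM, 0.62) and Hmgcs1 (169 and 256 against 301 and 319 CPM, 0.52), where 1.18% of all genes tested were higher. The median was 0.22. The glutamate uptake gene Slc1a2, the leading astrocyte transporter, was level at 8351 and 11666 against 8653 and 12131 CPM (0.02, SE 0.20), and of 24 uptake and homeostasis genes 0 had an unadjusted p under 0.05.

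Microglia were tested in the same 4 mice (126 and 157 barcodes in BCD/Ket, 120 and 172 in CORT/Ket). Of 5000 genes 0 were called (0%) by edgeR and 0 by DESeq2, and 116 had an unadjusted p under 0.05 (2.32%), 38 higher (0.76%) and 78 lower (1.56%). The groups did not overlap for 11.3% of genes on the lower and 13.9% on the higher side. The smallest p values on the lower side were those of Dclk1 (77.5 and 46.1 against 3.25 and 17.7 CPM, −2.74, edgeR adjusted p = 0.461), Slc1a2 (227 and 243 against 71.6 and 115 CPM, −1.40, edgeR adjusted p = 0.461) and Ptgds (54.5 and 79.6 against 16.3 and 17.7 CPM, −1.96, edgeR adjusted p = 0.999). Slc1a2 is an astrocyte marker. The 8 astrocyte markers summed to 318 to 416 CPM in BCD/Ket microglia and 130 to 181 CPM in CORT/Ket microglia, their part in these values was not tested, and 6 of 11 astrocyte uptake genes tested were lower at an unadjusted p under 0.05, with a median of −0.73.

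Homeostatic microglial genes stood level. Of 18 tested 0 had an unadjusted p under 0.05 and the median was 0.02, with Tmem119 at 1776 and 1450 CPM in BCD/Ket and 1426 and 1624 CPM in CORT/Ket. Among glucocorticoid targets, Fkbp5, a co-chaperone gene of the receptor, measured 152 and 101 CPM against 48.8 and 84.1 CPM (−1.04, SE 0.40), and Sgk1 221 and 230 against 107 and 168 CPM (−0.78, SE 0.34). Both were lower in each CORT/Ket mouse, as were 11.3% of all genes tested in microglia, and both had an edgeR adjusted p of 0.999. They do not describe the target list as a whole.

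Antigen presentation genes varied widely between mice in microglia. Cd74, the invariant chain of MHC class II, measured 17.2 and 134 CPM in BCD/Ket and 882 and 137 CPM in CORT/Ket (2.91, SE 1.69), and H2-Ab1, an MHC class II gene, 8.61 and 46.1 against 329 and 70.8 CPM. H2-Eb1, of the same class, measured 0 and 37.7 against 293 and 102 CPM, the highest fold change of the 5000 genes (3.62, SE 1.38, edgeR adjusted p = 0.999). The highest values were those of mouse 9968, and mouse 9971 also lay above both BCD/Ket mice in these 3 genes. H2-Eb1 was called higher with no filter on low counts (edgeR adjusted p = 3.79e-06), with all 10 libraries in the fit (0.0259) and at gates of 1 UMI, 3 UMIs or 8 markers (0.00902 at most). H2-Ab1 was called higher with no filter and at a gate of 1 UMI. Neither was called with RLE factors, DESeq2, a mitochondrial limit of 5% or 25%, at least 500 genes, or mitochondrial genes kept. Leaving out mouse 9986 or mouse 9971 left 1 library in a group. The log2 fold changes were then 8.87 and 4.21 for H2-Eb1 and 4.43 and 3.755 for H2-Ab1. Values without mouse 9949, or without mouse 9968, which held the highest values, are not reported here. The macrophage markers Mrc1 (0 and 289 against 97.6 and 70.8 CPM) and Pf4 (0 and 168 against 104 and 48.7 CPM) were undetected in 1 BCD/Ket library, mouse 9949. On the higher side the smallest p values were those of Zfp407 (1.58), 2010315B03Rik (1.39) and Gm42031 (1.20), with an edgeR adjusted p of 0.999 each.

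Oligodendrocytes were tested with 3 BCD/Ket libraries (69, 45 and 64 barcodes) and 2 CORT/Ket libraries (mice 9968 and 9971, 23 and 41 barcodes), since mouse 9967 had 3 barcodes. Of 2399 genes 1 passed (0.0417%), S100b, and 72 had an unadjusted p under 0.05 (3%), 28 higher (1.17%) and 44 lower (1.83%). The groups did not overlap for 8.38% of genes on the lower and 9.46% on the higher side. S100b, which encodes a calcium-binding protein of glia, measured 170, 541 and 369 CPM in BCD/Ket mice 9946, 9949 and 9986 and 73.4 and 56.5 CPM in CORT/Ket (8 and 5 UMIs). It fell by 2.49 on the log2 scale (SE 0.51, edgeR adjusted p = 0.0451), and the 3 oligodendrocytes of mouse 9967, outside the test, held 6 S100b UMIs (1242 CPM), which is above every BCD/Ket mouse. The call was lost under DESeq2 (adjusted p = 0.177) and under 8 other alternatives, among them leaving out mouse 9949, 9986, 9968 or 9971.

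The myelin genes of oligodendrocytes lay near the median of all genes tested. Of 20 myelin genes tested in oligodendrocytes 0 were called, 1 was higher at an unadjusted p under 0.05, 3 did not overlap on the higher side and 1 on the lower, and the median was 0.09 beside 0.03 over all genes tested. Mbp, a main protein gene of compact myelin, measured 5755, 6607 and 5389 CPM in BCD/Ket and 5235 and 5423 CPM in CORT/Ket (−0.14, SE 0.26), and Mobp 2271, 2552 and 2558 against 3778 and 3107 CPM, without overlap (0.50, SE 0.27).

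Gpr17, Tnr, Bmp4 and Enpp6 are described because their values differed among the BCD/Ket mice; they were chosen after those values were seen, and say nothing of a gene group. Gpr17, a receptor gene of differentiating precursors, measured 0, 209 and 199 CPM in BCD/Ket mice 9946, 9949 and 9986 and 18.3 and 0 CPM in CORT/Ket. Tnr, an extracellular matrix gene, measured 13.0, 377 and 431 against 0 and 0 CPM, and Bmp4 measured 0, 115 and 108 against 0 and 0 CPM. Mice 9949 and 9986 were high, and mouse 9946 lay with the CORT/Ket mice, whose zeros allow up to 27.5 and 33.9 CPM.

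**Figure D4:**
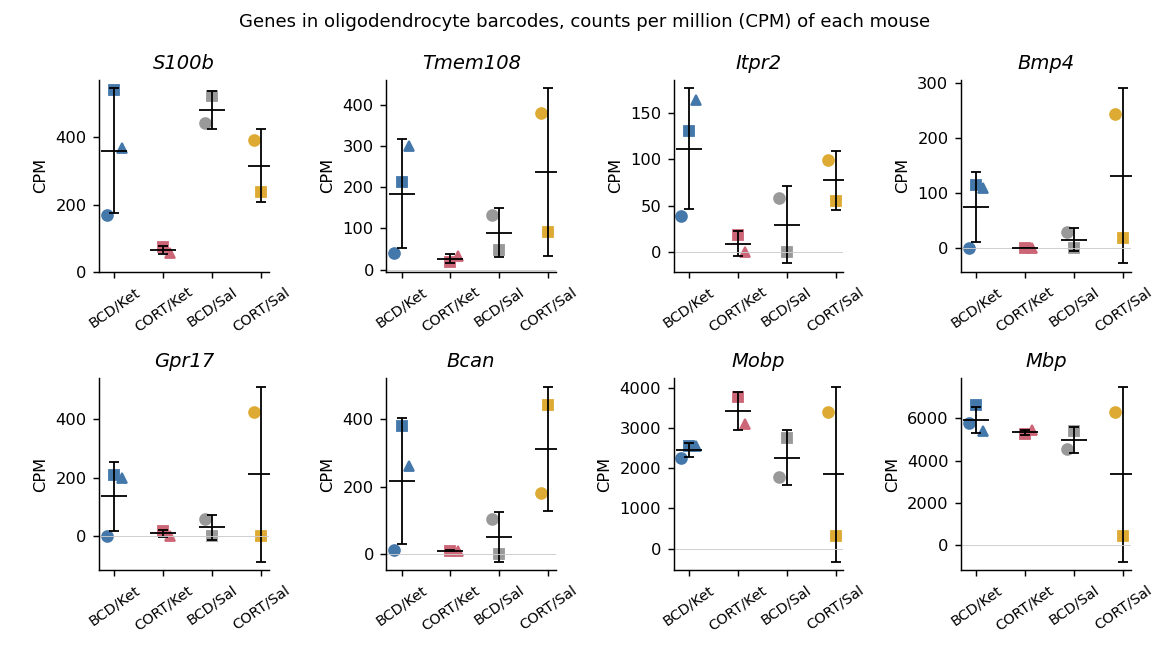
Oligodendrocyte level (CPM, y axis) of 8 genes in the ketamine and saline libraries with at least 10 oligodendrocytes, with 1 point per mouse and the mean ± SD of each group, where a wide SD can reach below 0. BCD/Ket mice 9949 and 9986 hold the high Gpr17 values (209 and 199 CPM), and Mbp overlaps between CORT/Ket and BCD/Ket.

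Enpp6, a phosphodiesterase gene, measured 52.2, 352 and 511 CPM in BCD/Ket and 101 and 147 CPM in CORT/Ket. Without mouse 9946, 28 of 2856 genes tested were called, all lower in CORT/Ket, Enpp6, Gpr17, Tnr, Bmp4, Bcan, Sox4, Itpr2 and S100b among them. Gpr17, Tnr, Bmp4 and Enpp6 were chosen because the BCD/Ket mice differed, so their calls without mouse 9946 are not independent of that choice. Of the 8 listed precursor markers 2 were tested, and they lay on opposite sides (Gpr17 −3.80, Olig1 0.22). The list as a sum did not separate the groups (1031 to 1569 CPM in BCD/Ket and 983 to 1430 CPM in CORT/Ket), and Pdgfra, which defines precursor cells, was at 0 in each of these 5 libraries. In saline mice the highest Gpr17 value was that of a CORT/Sal mouse: 58.8 and 0 CPM in BCD/Sal and 424 and 0 CPM in CORT/Sal.

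Other oligodendrocyte genes of smallest p did not pass. On the lower side were Tmem108 (39.1, 213 and 301 against 18.3 and 33.9 CPM, −2.92, edgeR adjusted p = 0.293) and Itpr2, a calcium release channel gene (39.1, 131 and 165 against 18.3 and 0 CPM, edgeR adjusted p = 0.312). On the higher side were Gstp1, a detoxifying enzyme gene (26.1, 69.6 and 68.1 against 248 and 124 CPM, 1.66), Nmral1 (78.3, 172 and 153 against 358 and 316 CPM, 1.26) and Ndrg2 (117, 143 and 90.8 against 202 and 362 CPM, 1.23).

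Excitatory neurons entered from all 6 libraries with 11 to 86 barcodes, and 0 of 2827 genes were called (0%) by edgeR and 0 by DESeq2. At an unadjusted p under 0.05 there were 67 (2.37%), 30 higher (1.06%) and 37 lower (1.31%), and the groups did not overlap for 3.33% on the lower and 3.5% on the higher side. Bcl11a, a zinc-finger transcription factor gene of neurons, measured 423, 470 and 515 CPM in BCD/Ket and 242, 74.4 and 208 CPM in CORT/Ket (−1.35), and Dkk3, a secreted protein gene, 132, 364 and 247 against 80.7, 130 and 62.9 CPM (−1.59). Lypd1, which encodes a modulator of nicotinic receptors, measured 508, 93.9 and 276 against 1319, 800.0 and 484 CPM (1.55), and the groups overlapped. Nfix (−1.25), Bmp1 (1.44) and Fam3c (1.55) were the other genes of smallest p, and all 6 had an edgeR adjusted p of 1.

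The synaptic lists of excitatory neurons did not separate the groups. Of 22 glutamate receptor and postsynaptic genes tested, 0 had an unadjusted p under 0.05, and the median was 0.13. The activity-regulated neuropeptide precursor gene Vgf measured 179, 470 and 231 CPM in BCD/Ket and 89.7, 93.0 and 167 CPM in CORT/Ket, without overlap (−1.23, SE 0.46, edgeR adjusted p = 1). Camk2n1, an inhibitor of CaMKII, measured 1731, 1386 and 862 against 2413, 4167 and 1730 CPM, where CORT/Ket mouse 9971 lay just under the highest BCD/Ket mouse (1.06, SE 0.40).

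Planar cell polarity genes, a pathway that the study follows in prefrontal cortex and amygdala, were sparse here. In excitatory neurons 5 of 22 were tested and 0 had an unadjusted p under 0.05, with a median of −0.15. Celsr2, an atypical cadherin gene, measured 405, 235 and 305 CPM in BCD/Ket and 359, 242 and 252 CPM in CORT/Ket (−0.15, SE 0.37). Its relative Celsr3 measured 84.7, 93.9 and 120 against 89.7, 55.8 and 151 CPM (0.11, SE 0.43), and Prickle2 169, 93.9 and 144 against 135, 130 and 116 CPM (−0.15, SE 0.39). All 3 overlapped, and SEs of 0.37 to 0.43 can leave larger differences than these undetected at this depth. In the same test Bcl11a, at −1.35 with an SE of 0.40, did not pass.

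Inhibitory neurons were tested in BCD/Ket mice 9946 and 9986 (22 and 10 barcodes) and CORT/Ket mice 9967 and 9971 (18 and 15 barcodes). Of 929 genes 0 were called (0%) by edgeR and 0 by DESeq2, and 27 had an unadjusted p under 0.05 (2.91%), 10 higher (1.08%) and 17 lower (1.83%), with no overlap in 18.4% on the lower and 10.4% on the higher side. Cck, the neuropeptide of a class of basket cells, measured 142 and 0 CPM in BCD/Ket and 403 and 981 CPM in CORT/Ket (2.90, edgeR adjusted p = 0.568), and Cnr1, the cannabinoid receptor gene of the same cells, 374 and 238 against 655 and 3011 CPM (2.64, edgeR adjusted p = 0.568). BCD/Ket mouse 9949, whose 6 barcodes kept it out of the test, had 4566 CPM of Cck and 6023 CPM of Cnr1. The order of the groups in these genes turned with that library, and Scg2, a granin gene, measured 606 and 476 against 139 and 33.8 CPM (−2.34, edgeR adjusted p = 0.603). CORT/Ket mouse 9968, also outside the test, had 564 CPM of Scg2 (8 UMIs), among the BCD/Ket values. The other genes of smallest p were Gm26917 (2.60), Lypd1 (−2.22) and Cpne4 (−3.21).

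Summed over all kept barcodes, 0 of 12319 genes were called (0%) by edgeR and 0 by DESeq2, and 131 had an unadjusted p under 0.05 (1.06%), 20 higher (0.162%) and 111 lower (0.901%), with no overlap in 3.66% on the lower and 2.48% on the higher side. In such sums fewer cells of a type and less RNA per cell cannot be told apart. The oligodendrocyte markers had a median of −1.38 (6 tested, all below 0) and the myelin genes one of −1.19, beside 0.02 over all genes tested. Of the myelin genes 6 of 20 had an unadjusted p under 0.05, all lower, and 11 did not overlap on that side. Mbp measured 1431, 818 and 666 CPM in BCD/Ket and 173, 411 and 371 CPM in CORT/Ket, and the galactolipid synthesis gene Ugt8a 317, 130 and 129 against 41.5, 79.7 and 54.6 CPM. These values went with the oligodendrocyte share, and the 8 oligodendrocyte markers summed to 1554 to 3216 CPM in BCD/Ket and 264 to 1334 CPM in CORT/Ket.

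Most glucocorticoid targets lay on the lower side in the sums over all kept barcodes, as they did in endothelial cells, which are part of those sums, while clock genes lay on both sides. Sgk1 measured 502, 262 and 111 CPM in BCD/Ket and 49.0, 75.4 and 93.1 CPM in CORT/Ket (−2.03, SE 0.58), Tsc22d3 130, 227 and 89.9 against 22.6, 73.6 and 49.0 CPM (−1.62, SE 0.53), and Dbp 79.3, 161 and 122 against 79.2, 66.8 and 39.1 CPM (−1.06, SE 0.42). Dbp in CORT/Ket mouse 9967 was level with BCD/Ket mouse 9946. Sgk1 overlapped between the groups in endothelial cells, and the part of the class shares in its sum was not tested. Npas2, a partner of ARNTL that can stand in for CLOCK, measured 2.40, 4.22 and 6.64 against 11.3, 12.3 and 11.2 CPM (1.20, SE 0.47), with 1 to 20 UMIs per library. None of these passed (edgeR adjusted p = 1 each). Of 27 glucocorticoid targets tested 23 lay below 0, and 5 were lower and 0 higher at an unadjusted p under 0.05, where 0.901% of all genes tested were lower, with a median of −0.51. Of 18 clock genes tested 11 lay below 0 and 7 above, 3 were lower and 1 (Npas2) higher at that threshold, and the median was −0.11. All 22 tested genes of the list of immediate early and dissociation genes also lay below 0 in these sums (median −0.69, 1 with an unadjusted p under 0.05), and their part in the other values was not tested.

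**Figure D5:**
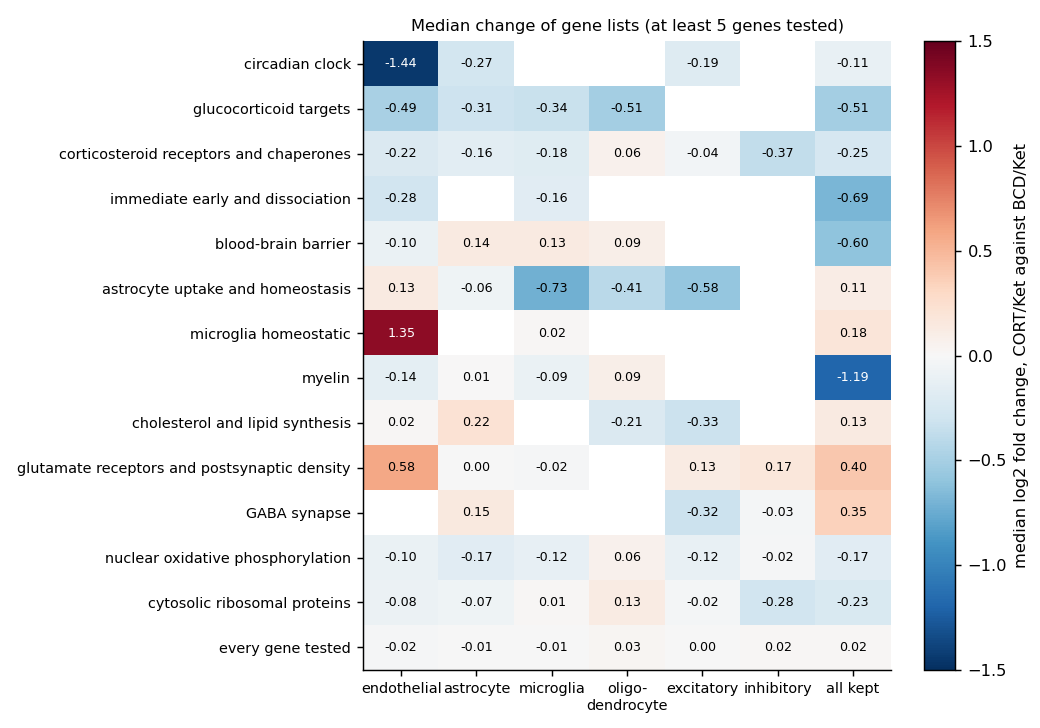
Median log2 fold change (colour, CORT/Ket against BCD/Ket) of the tested genes of 13 gene lists and of all genes tested (rows) in the 6 classes and in all kept barcodes (columns), for lists with at least 5 genes tested in a class. The clock list reaches −1.44 in endothelial cells, and the myelin list −1.19 in all kept barcodes and 0.09 in oligodendrocytes.

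The remaining genes of smallest p over all kept barcodes were 1500015O10Rik, which encodes the secreted peptide ecrg4 (2.40, 3.29 and 3.62 against 15.1, 22.1 and 21.1 CPM, 2.53), Rprm (1.70) and Tmem132d (1.39) on the higher side, and Chn2 (115, 103 and 67.6 against 22.6, 42.3 and 37.9 CPM, −1.46), Hapln2 (−1.41) and Hcn2 (−1.30) on the lower side. The groups did not overlap in these 6 genes and each had an edgeR adjusted p of 1. Ttr, the leading transcript of the choroid plexus, measured 0, 1.88 and 85.7 CPM in BCD/Ket and 3356, 0 and 1974 CPM in CORT/Ket, and the choroid plexus and ependyma list summed to 388 to 809 and 410 to 3639 CPM. 1500015O10Rik is also abundant in choroid plexus, and the part of such cells in its value was not tested.

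Ribosomal protein and respiration genes gave no call in any class in the tests above. In astrocytes without mouse 9986, which left 1 BCD/Ket library, the ribosomal gene Rps28 lay at −1.27 on the log2 scale. In that fit the ATP synthase gene Atp5k lay at −1.41 and Usmg5, a gene of the same complex outside the list, at −1.27. Values of these genes in other fits are not reported here. Of the 60 cytosolic ribosomal protein genes tested in endothelial cells 0 had an unadjusted p under 0.05 (median −0.08), and in astrocytes 7 of 60 were lower (median −0.07). Of 43 nuclear oxidative phosphorylation genes 0 in endothelial cells and 4 in astrocytes, all lower, had an unadjusted p under 0.05, with medians of −0.10 and −0.17. Over all genes tested in astrocytes 2.01% were lower at that threshold.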

How the data were processed

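The deposited matrices hold raw UMI counts per gene and barcode of 10x Chromium libraries, not normalized, which the authors made with Cell Ranger (the headers give version 3.0.2). The submitters' processing notes name mm9 and Seurat 3.1.1. The 31053 genes carry Ensembl identifiers and symbols. Doublets were not called, and whether they were removed before deposit is not given in the sources used here. Whether mice shared a processing day is not given in the sources used here either.

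UMIs were summed per library and gated class, for libraries with at least 10 barcodes and classes with at least 2 libraries per group. CPM is per 1000000 non-mitochondrial UMIs of a class in a library. The 12 gate genes and 13 mitochondrial genes were not tested. Sums of the 6 ketamine libraries were fitted with edgeR 4.0.16 (TMM factors, filterByExpr, robust quasi-likelihood test) in R 4.3.3 with limma 3.58.1, and p-values were adjusted by Benjamini-Hochberg over all genes tested, at a threshold of 0.05. Mice are the replicates. A gene high in 1 group alone can pass filterByExpr, so counts over a list describe its tested members and do not test the list. Fold changes are fitted log2 values, CORT/Ket against BCD/Ket. Shares and quality values were compared by exact two-sided permutation over libraries, with Python 3.11.15, numpy 2.4.6, scipy 1.17.1 and pandas 2.3.3, and figures were drawn with matplotlib 3.10.9. The difference of the corticosterone effects was tested in 1 fit of 10 libraries.

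Genes of 35 hand-written lists could be named (558 of 560 genes are in the files). Besides these, for each class and direction, up to 5 called genes of smallest p whose groups did not overlap were named, and where fewer than 3 passed, those of smallest p up to 3, as not past the threshold. One gene of this rule is not reported here. A few genes were named or described after their values were seen: Gpr17, Tnr, Bmp4, Bcan, Sox4, Enpp6, Itpr2 and Usmg5. Of these, Gpr17 is also a listed precursor marker, and Itpr2 also met the rule of smallest p. The groups, members and lists were chosen with earlier results of these data known. On simulated counts with 200 genes changed 4-fold at a dispersion of 0.1, the fit recovered 64.5% in endothelial cells, 36.5% in astrocytes, 47% in microglia, 65% in oligodendrocytes, 75.5% in excitatory neurons, 57.5% in inhibitory neurons and 76.5% over all kept barcodes. The simulation gave every gene and class the same dispersion, so these rates do not measure recovery at the spread of the real data. It also called 2 to 11 unchanged genes, the fewest in endothelial cells, astrocytes and microglia and the most over all kept barcodes. All 11 clock and glucocorticoid genes looked up had a promoter in the RefSeq table. Alternatives were RLE factors, DESeq2 1.42.0, no filter on low counts, all 10 libraries in the fit, other barcode minimums, gates, mitochondrial limits (5% and 25%) and gene minimums (500), mitochondrial genes kept, and each library left out. Added after seeing the data were fits without, or with a term for, the 2 libraries with fewer than 10 microglia, and the barcodes above the mitochondrial limit. The prefrontal libraries were not used here.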

Additional observations from a re-analysis of the deposited data

Results flagged for a closer look

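In oligodendrocytes the effect of corticosterone differed between ketamine and saline mice for 17 of 3363 genes (0.506%) when CORT/Sal mouse 9970 was left out, by edgeR's test of the difference in the fit of both treatments. All 17 were lower in the ketamine contrast. With mouse 9970 in the fit, edgeR called 0 of 2436 genes and DESeq2 0, and 73 had an unadjusted p under 0.05 and a lower effect. Without that mouse CORT/Sal is a single library, mouse 9969, whose spread is taken from the other groups, and in that mouse Gpr17 measured 424 CPM and Bmp4 243 CPM. In mouse 9970 the myelin gene Mbp measured 439.9 CPM in the barcodes gated as oligodendrocytes, beside 5235 to 6607 CPM in the 5 ketamine libraries tested. Of the 17 genes, 12 (70.6%) were also among the 28 called between CORT/Ket and BCD/Ket without mouse 9946 (42.9% of the 28). Both counts use the same CORT/Ket and BCD/Ket mice.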

How the results depend on the processing

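Counts of called genes changed with the settings as follows, and the cause was not tested. Main counts were 2 in endothelial cells, 1 in oligodendrocytes and 0 elsewhere. In astrocytes, microglia and inhibitory neurons, leaving out a library left 1 in a group, so those counts rest on a group without replicates. The same holds for oligodendrocytes without mouse 9968 or mouse 9971. In endothelial cells the count was 1 with DESeq2, 11 with no filter, 0 with all 10 libraries, 0 at a 5% mitochondrial limit (1182 genes tested), 4 with a term for the microglia-poor libraries, 1 among barcodes above the limit, and 1 to 5 with a library left out. In astrocytes it was 1 with no filter, 1 at 5 barcodes, 3 at a gate of 1 UMI, 2 at a 25% limit and 1 to 18 with a library left out. In microglia it was 5 with no filter, 2 with all 10 libraries, 5 at a gate of 1 UMI, 1 at a gate of 3, 1 with 8 markers and 1 to 10 with a library left out. In oligodendrocytes it was 0 with DESeq2, all 10 libraries, a gate of 1 UMI, 8 markers, mitochondrial genes kept or barcodes above the limit, 21 with no filter, 3 at a gate of 3, 15 at a 25% limit, 28 without both microglia-poor libraries and 0 to 28 with a library left out. In excitatory neurons it was 8 with no filter, 3 without both microglia-poor libraries and 0 to 1 with a library left out, and in inhibitory neurons 2 at a 25% limit and 0 to 12 with a library left out. Without CORT/Sal mouse 9970 the difference of effects had 17 genes in oligodendrocytes and the saline contrast 6 in endothelial cells; with DESeq2 the saline contrast had 19 in excitatory and 1 in inhibitory neurons.

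Signs turned for Cck (−1.55 at 5 barcodes, −1.70 at a gate of 1 UMI) and Cnr1 (−0.74 and −1.01) in inhibitory neurons, for Per1 in astrocytes without mouse 9949 (−1.42 to 0.24 with a library left out), and among barcodes above the mitochondrial limit for Ndrg2 in oligodendrocytes (−0.094), Lypd1 in inhibitory neurons (0.28), Tmem132d over all barcodes (−0.43) and Mt2 in endothelial cells (0.0195). With a library left out, share differences ran from −9.72 to −3.57 points in oligodendrocytes, −12.66 to −2.67 in endothelial cells, −5.35 to 9.23 in astrocytes, −5.22 to 6.16 in microglia, −1.26 to 7.11 in excitatory and −1.55 to 4.72 in inhibitory neurons. Of 1035 values of named genes under alternatives, 978 kept their direction and side of the threshold. Most named genes were not called in the main test, so staying uncalled counted as keeping their side. Of the called genes, Dbp kept both in 18 of 20 alternatives, Nr1d1 in 17 of 21 and S100b in 8 of 17. These counts, like the 978, include repeated fits and are not counts of independent checks. In endothelial cells and oligodendrocytes a minimum of 5 barcodes gave the main fit again. A minimum of 30 barcodes gave, in endothelial cells, the fit without mouse 9967. Leaving out both microglia-poor libraries gave, in oligodendrocytes, the fit without mouse 9946. No paired analysis was possible because the 2 groups share no replicate number. Depth limits low genes: in the endothelial cells of mouse 9967 a count of 0 allows 159 CPM.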

Other observations

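Barcodes above the mitochondrial limit, used only as an alternative setting, held few clock-gene UMIs in endothelial cells. Dbp had 2, 4 and 16 UMIs in BCD/Ket mice 9946, 9949 and 9986 (77.2, 117 and 213 CPM) and 0, 3 and 1 UMIs in CORT/Ket mice 9967, 9968 and 9971 (0, 53.0 and 17.7 CPM). Nr1d1 had 7, 4 and 17 UMIs (270, 117 and 226 CPM) against 0, 2 and 1 UMIs (0, 35.3 and 17.7 CPM). The groups overlapped for Nr1d2, Hlf, Arntl, Tef (232, 29.1 and 332 against 492, 88.3 and 106 CPM) and Per1 (77.2, 29.1 and 0 against 0, 53.0 and 124 CPM). In mouse 9967 a single Tef UMI made 492 CPM, so its zeros carry no information at these levels, and it did not enter the fit of these barcodes. In that fit Nr1d1 did not pass (−2.81 on the log2 scale, edgeR adjusted p = 0.988), Dbp was too low to be tested, and the smooth muscle gene Acta2 was the 1 gene called of 1252.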
